A study of Oryza sativa with 4 samples.

Results

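The genes described here are those of the translation machinery: ribosomal proteins, translation initiation and elongation factors, aminoacyl-tRNA synthetases and poly(A)-binding proteins. They were found by the words of each probe's description on a 2-colour rice array, leaving out kinases of ribosomal protein S6, and came to 268 of 21495 probes that are not controls. Each probe stands for 1 rice cDNA, named by its accession. Of the 268 descriptions, 70 name rice and the others the nearest homologue of another species, so that roles below are those of the described homologue. The 268 cDNAs carry 175 distinct descriptions, and several cDNAs of the same gene can count apart.

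RNA came from branching panicles of the rice line TP309. One group of arrays compared wild type panicles with transgenic panicles carrying an antisense RFL construct, and the other compared wild type panicles with transgenic panicles carrying an RFL dsRNAi (double-stranded RNA interference) construct. RFL is the homologue in rice of LEAFY, a transcription factor of floral meristem identity in other plants. There were 2 arrays per construct, 1 with the transgenic RNA in Cy5 (replicate 1) and 1 with it in Cy3 (replicate 2), and wild type RNA in the other dye. The promoter of either construct, the number of transgenic lines and the number of plants pooled are not given in the sources used here. No probe is named for RFL, so the targeted gene was not analysed here. In these whole panicles, fewer cells of a type and less RNA per cell cannot be told apart.

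As background, a cytosolic ribosome is built from a small subunit, which reads the mRNA, and a large subunit, which joins the amino acids. Initiation factors bring the subunits, the first tRNA and the mRNA together, elongation factors carry each further step, aminoacyl-tRNA synthetases load amino acids onto tRNAs, and poly(A)-binding proteins hold the 3′ end of the message. Plastids and mitochondria have ribosomes of their own, of bacterial type, whose proteins are coded partly in the organelle and largely in the nucleus. Young panicles are rich in dividing cells, which make new ribosomes at a high rate.

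Of the 268 members, 235 could be tested. Another 28 were not well above background in either channel of any array, 4 more were well above it on too few arrays, and the last, the rice initiation factor eIF4A-2 (AK073620), was well above background on all 4 but lacked 1 value through an outlier spot. The tested members were bright. In 221 of 235 (94.0%) both channels were well above background on all 4 arrays, against 77.6% of all 17997 tested probes. Spots reached saturation on at least 1 array in 19 members (8.09%, against 0.595% of all), among them 7 of 52 large subunit proteins, 4 of 53 small subunit proteins and 2 of 5 elongation factors. Values below give the log2 of transgenic over wild type signal, with limma's moderated SE, over n = 4 arrays for the mean of both constructs and n = 2 for each construct. Adjusted p-values are limma's, by Benjamini-Hochberg over all tested probes, and a member is said to have risen or fallen where the adjusted p was under 0.05. The error behind these p-values is that among arrays carrying the same construct, possibly a technical one, and the small number of arrays limits the precision.

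After loess, most of the translation machinery had ratios close to 0 in the mean of both constructs. Loess centres the ratios of all spots near 0 at each intensity, and the members were bright. How far their closeness to 0 comes from the normalization was not tested. Of 235 members 11 rose and 46 fell, or 24.3% called. Over all tested probes 41.7% were called, 20.5% risen and 21.3% fallen, so the share of members called was the lower one. This held for rises and for falls, and the gap was larger for rises. Without antisense replicate 1, 5 rose and 38 fell, without dsRNAi replicate 1, 21 rose and 36 fell, and without dsRNAi replicate 2, 4 rose and 44 fell. Only 3 members (1.28%) had a mean log2 ratio of 1 or more in either direction, against 8.15% of all probes. The median of the members was -0.065, and that of all probes -0.0016. With the same sign on all 4 arrays, 7 of 235 members rose and 36 fell, both shares below the 17.4% and 17.1% of all probes.

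The roles were not alike in this. Ribosomal proteins counted as cytosolic lay around 0, while plastid ribosomal proteins, aminoacyl-tRNA synthetases and elongation factors lay lower, as the plot of the members by role shows. The differences between roles are given as counts and medians and were not tested. The counts depend on how the dyes were normalized within each array. After loess 57 members were called, and after centring each array on its median 3 were, the eIF6-like AK103139, the chloroplast S22 AK061449 and the eIF1A AK069347.

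**Figure D1:**
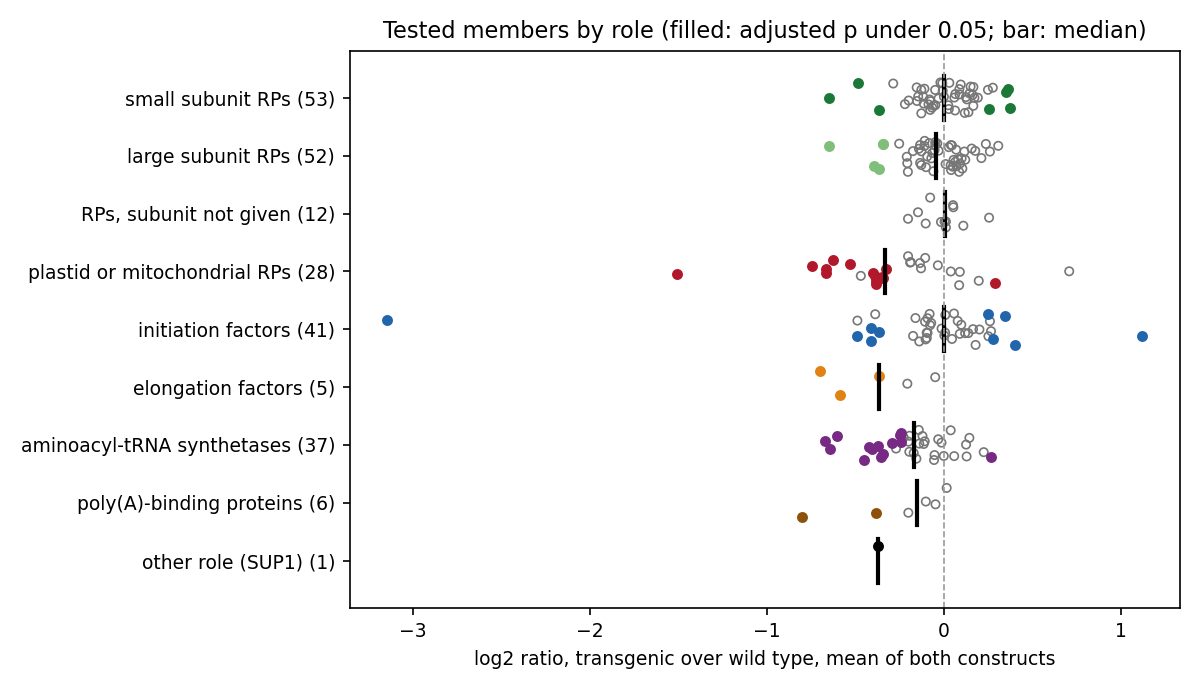
Log2 ratio of transgenic over wild type in the mean of both constructs (horizontal axis) for the 235 tested members, in rows by role with the number tested (RP, ribosomal protein). Each point is a cDNA, filled points had an adjusted p under 0.05, and the black bar is the median of the row. Plastid or mitochondrial proteins have their median at -0.33 and small subunit proteins at 0.001.

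Small subunit proteins had a median of 0.001 and a range from -0.65 to 0.37. Among 53 tested, 4 rose and 3 fell (13.2% called, against 41.7% of all probes). Without antisense replicate 1 these were 1 and 5, without antisense replicate 2 they were 3 and 2, without dsRNAi replicate 1 they were 6 and 2, and without dsRNAi replicate 2 they were 2 and 3. A rice ribosomal protein S9 cDNA (AK060503) stood at -0.66 and -0.71 on the antisense arrays and at -0.73 and -0.51 on the dsRNAi arrays. All 4 arrays were low, and the constructs overlapped. It fell by 0.65 ± 0.08 (adjusted p = 0.000498), or 1.57-fold, and fell in each construct on its own (adjusted p = 0.00267 with antisense and 0.00694 with dsRNAi). A cDNA of S3 (AK061051), a protein at the entry of the mRNA channel, rose by 0.37 ± 0.08 (adjusted p = 0.00828). Antisense arrays gave 0.50 and 0.27, and both dsRNAi arrays 0.36, so that all were high. Without antisense replicate 1 it stood at 0.32 and was no longer called (adjusted p = 0.0566).

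Another small subunit protein, S13, was represented by cDNAs that moved in opposite directions. AK063015 stood at 0.49 and 0.57 with antisense and at 0.01 and 0.37 with dsRNAi, and rose by 0.36 ± 0.09 (adjusted p = 0.0142). AK059505, with the same description, stood at -0.04 and -0.08 with antisense and at -0.91 on both dsRNAi arrays, and fell by 0.48 ± 0.08 (adjusted p = 0.00164). The fall of AK059505 thus lay in the dsRNAi arrays, and the constructs did not overlap. Without dsRNAi replicate 2, AK063015 stood at 0.27 and was no longer called (adjusted p = 0.0659). Of a ubiquitin-S27a fusion (AK108323), whose ubiquitin part is split off after translation, the wild type channel was not well above background on any array. It entered the test through its transgenic channel alone, so its place among the 4 that rose supports nothing. Its mean log2 intensities were 6.58 for transgenic and 6.33 for wild type RNA, with a wild type bound of 6.36. Transgenic over that bound was 1.17-fold, a value that carries no error, and no rise is read from it. The measured ratio had an adjusted p of 0.0476, and of 0.222, 0.0754 and 0.185 without antisense replicate 1, antisense replicate 2 and dsRNAi replicate 1.

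Large subunit proteins had a median of -0.042. Among 52 tested, 0 rose and 5 fell (9.62% called, against 41.7% of all probes). Without dsRNAi replicate 1, 5 rose and 3 fell, and without antisense replicate 2, 2 rose and 4 fell. The lowest was a cDNA described as ribosomal protein L13 of Arabidopsis locus At1g78630 (AK104146), at -0.77 and -1.04 with antisense and -0.44 and -0.35 with dsRNAi. It was low on all 4 arrays, more so with antisense, without overlap. Its mean fell by 0.65 ± 0.08 (adjusted p = 0.000615). A rice L12 homologue (AK062414), of the stalk region where translation factors bind, gave -0.46 and -0.45, then -0.54 and -0.13, and fell by 0.39 ± 0.09 (adjusted p = 0.0115). A barley-type L24 (AK101927), also of the large subunit, gave -0.29 and -0.21, then -0.54 and -0.41, and fell by 0.36 ± 0.08 (adjusted p = 0.00794). The descriptions of AK104146, of AK062414 and of the S9 cDNA AK060503 name no compartment, and these were counted by their letter with the cytosolic proteins. Whether AK062414 and AK060503 are cytosolic or plastid proteins is not given. The locus of AK104146 is known in Arabidopsis as a nuclear gene of a plastid ribosomal protein. So is that of the L18 cDNA AK099043 (At1g48350), which fell by 0.34 ± 0.10 (adjusted p = 0.0335). Of 12 ribosomal proteins whose description gives no subunit, 0 were called by limma in the mean, and 0 had an unadjusted p under 0.05.

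Families of ribosomal proteins with 3 or more tested cDNAs were read by their range. The 4 cDNAs of S24 ran from 0.06 to 0.25 and the 3 of S6 from 0.001 to 0.17, all above 0. The 3 of S10 ran from -0.22 to -0.01 and were all below 0. None of these was called by limma in the mean, and an unadjusted p under 0.05 was reached by 1 of S24, 0 of S6 and 0 of S10. In the 3 cDNAs of L3, next to the site where peptide bonds form, the range was -0.20 to 0.05, and in the 3 of L34 it was -0.08 to 0.24. The widest range in these families was that of S13, from -0.48 to 0.36.

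Of 28 tested plastid or mitochondrial ribosomal proteins, 1 rose and 14 fell (53.6% called, against 41.7% of all probes). Leaving out 1 array gave 10 to 15 that fell, with 10 without antisense replicate 1 or dsRNAi replicate 1, and 0 to 2 that rose. With construct as a random block 1 fell, with median centring 1 fell, and with the arrays of each construct averaged limma called 0, with 7 at an unadjusted p under 0.05. Their median was -0.33, and their medians on single arrays were -0.40 and -0.21 with antisense and -0.32 and -0.12 with dsRNAi. All 4 medians were below 0 after loess. With median centring that of dsRNAi replicate 1 was 0.24, where the median of all tested probes was 0.26. The descriptions were further split by compartment after the values were seen. The 23 cDNAs whose description names a plastid or chloroplast included 13 that fell and 0 that rose, with a median of -0.37, and 13 of the 23 were below 0 on every array (56.5%, against 21.3% of all probes). The 3 that name the mitochondrion lay above 0 in the mean, with a median of 0.20, and 1 rose.

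A cDNA of the spinach-type chloroplast ribosomal protein S22 (AK061449) changed most in this role. The antisense arrays gave -2.54 and -2.10, and the dsRNAi arrays -0.57 and -0.82. All were low and the constructs did not overlap. In the mean it fell by 1.51 ± 0.10 (adjusted p = 1.74e-05), or 2.84-fold. With antisense the fall was 4.99-fold (adjusted p = 1.42e-05), and with dsRNAi it was 1.62-fold (adjusted p = 0.0102). The plastid protein CL24 (AK060024), of the large subunit, gave -1.20 and -0.77, then -0.49 and -0.22, and fell by 0.67 ± 0.10 (adjusted p = 0.00129). The rice plastid L10 (AK069064), which anchors the stalk proteins, gave -0.95 and -0.86, then -0.63 and -0.21, and fell by 0.67 ± 0.09 (adjusted p = 0.000939). In both, every array was low and the antisense arrays were the lower ones, with no overlap between the constructs.

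Other members of the plastid ribosome lay in the same direction. Both cDNAs described as plastid CL9 fell, AK058369 by 0.39 ± 0.08 (adjusted p = 0.00688) and AK071751 by 0.38 ± 0.09 (adjusted p = 0.0107). Descriptions naming genes that plants keep in the plastid genome also occurred. Both cDNAs described as chloroplast rps3 and rpl22 fell, by 0.40 ± 0.10 (AK072149) and 0.37 ± 0.10 (AK060382). A chloroplast rpl16 cDNA (AK063463) was uneven, at 0.62, 0.97, -0.86 and 2.11 over the arrays, and did not pass the test (adjusted p = 0.193). The one cDNA of this role that rose was the mitochondrial S10 (AK111605), at 0.48 and 0.32 with antisense and -0.00086 and 0.37 with dsRNAi, with a mean of 0.29 ± 0.09 (adjusted p = 0.0382).

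Initiation factors held the largest single changes in both directions. Of 41 tested, 5 rose and 5 fell (24.4% called, against 41.7% of all probes), with a median of 0.004. Without antisense replicate 1, 2 rose and 3 fell, and without dsRNAi replicate 2, 2 rose and 4 fell. The lowest was a cDNA described as eIF6-like (AK103139), a factor that binds the large subunit during its assembly and keeps it from joining the small one. The antisense arrays gave -4.76 and -3.88, and the dsRNAi arrays -2.31 and -1.64. Every array was low, and the antisense arrays were lower than both dsRNAi arrays. It fell by 3.15 ± 0.16 in the mean (adjusted p = 5.22e-06), 8.85-fold, with 19.9-fold in antisense (adjusted p = 7.34e-06) and 3.93-fold in dsRNAi (adjusted p = 0.000733). From the deposited log ratio the mean was -4.64, so the size of the fall depends on the processing. Its transgenic channels were dim, as given below, which limits the fold values. The other cDNA with the same description, AK074012, did not pass in the mean, at 0.25 ± 0.10 (adjusted p = 0.0709), and rose with antisense by 0.46 (adjusted p = 0.0336).

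Both eIF1A cDNAs and 1 of 3 eIF1 cDNAs rose with antisense. A wheat-type eIF1A (AK069347), which helps the small subunit find the start codon, gave 1.69 and 2.38 on antisense arrays and -0.07 and 0.49 on dsRNAi arrays. The antisense arrays were high and did not overlap with the dsRNAi arrays. In the mean it rose by 1.12 ± 0.14 (adjusted p = 0.000454), by 4.09-fold with antisense (adjusted p = 0.000145), and the dsRNAi value of 0.21 ± 0.20 did not pass (adjusted p = 0.491). It lost its call in the mean when construct was a random block (adjusted p = 0.138). A second eIF1A cDNA (AK099441) rose by 0.35 ± 0.09 (adjusted p = 0.0147). A cDNA of eIF1 (AK070301), which acts beside eIF1A, rose with antisense (0.64 and 0.88 on its arrays, adjusted p = 0.00187) and fell with dsRNAi (-0.36 and -0.49, adjusted p = 0.0355), and its mean of 0.17 ± 0.08 did not pass (adjusted p = 0.157). The other eIF1 cDNAs, AK067031 and AK101048, stood at -0.11 and -0.09 in the mean and did not pass.

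Smaller changes were shared by all arrays. A cDNA described as eIF4 of Arabidopsis (AK100968) gave 0.26 and 0.52, then 0.40 and 0.43, and rose by 0.40 ± 0.08 (adjusted p = 0.00624). It was the 1 member that rose in each construct on its own. The RNA helicase eIF4A (AK103270, described as tobacco NeIF-4A3) rose by 0.28 ± 0.08 (adjusted p = 0.0238) and a rice eIF-5A (AK060387) by 0.25 ± 0.08 (adjusted p = 0.0328). Each lost its call when any 1 array was left out, with values of 0.24 to 0.32 and 0.23 to 0.27. Another rice cDNA, described by the older name eIF-4D (AK099039), gave -0.16 and -0.30 on antisense arrays and -0.69 and -0.81 on dsRNAi arrays, and fell by 0.49 ± 0.08 (adjusted p = 0.0019). eIF-4D and eIF-5A are names of the same factor, which helps ribosomes through difficult stretches of peptide. A cDNA described as the human scaffold protein eIF4G (AK062438) fell by 0.41 ± 0.10 (adjusted p = 0.0115). Its arrays gave -0.43, -0.07, -0.42 and -0.71, and without antisense replicate 1 it stood at -0.32 (adjusted p = 0.0558).

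The large multi-subunit factors did not pass the test. None of 7 cDNAs of eIF2, which carries the first tRNA, 6 of eIF2B, which recharges eIF2, and 7 of eIF3, which binds the small subunit, was called by limma in the mean, and an unadjusted p under 0.05 was reached by 0 of eIF2, 1 of eIF2B and 1 of eIF3. Their ranges were -0.10 to 0.20 for eIF2, -0.10 to 0.27 for eIF2B and -0.49 to 0.06 for eIF3.

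Of 5 tested elongation factors 0 rose and 3 fell, against 20.5% and 21.3% of all probes, and all 5 means were below 0. With construct as a random block 2 fell, and with median centring limma called 0, with 0 at an unadjusted p under 0.05 and a median of -0.37. Most of them were cDNAs described as rice EF-1 alpha, which brings each loaded tRNA to the ribosome. AK072648 gave -0.53 and -0.38 on antisense arrays and -0.99 and -0.88 on dsRNAi arrays, and fell by 0.70 ± 0.08 (adjusted p = 0.00031). It was low on every array, lower with dsRNAi, and fell in each construct on its own. AK061464 fell by 0.37 ± 0.09 (adjusted p = 0.0104), from -0.17 and -0.09 with antisense and -0.74 and -0.47 with dsRNAi, with the transgenic spot saturated on 2 arrays and the wild type spot on 1. AK058454, at -0.21 ± 0.09 (adjusted p = 0.101), and AK072285, at -0.05 ± 0.17 (adjusted p = 0.849), did not pass. The spot of AK072285 was saturated on 2 arrays in each channel, and its values followed the dye, at -0.31 and -0.62 with transgenic RNA in Cy5 and 0.48 and 0.25 with it in Cy3. The chloroplast factor EF-Tu (AK064937), the plastid counterpart of EF-1 alpha, gave -0.87 and -0.72 on antisense arrays and -0.40 and -0.35 on dsRNAi arrays, and fell by 0.58 ± 0.08 (adjusted p = 0.000734). It was low on all arrays and lower with antisense, as were the plastid ribosomal proteins S22, CL24 and L10. Those 3 were named for their low means. Over the 28 proteins of their role the dsRNAi minus antisense difference had a median of 0.05, with 15 above 0 and 13 below.

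**Figure D2:**
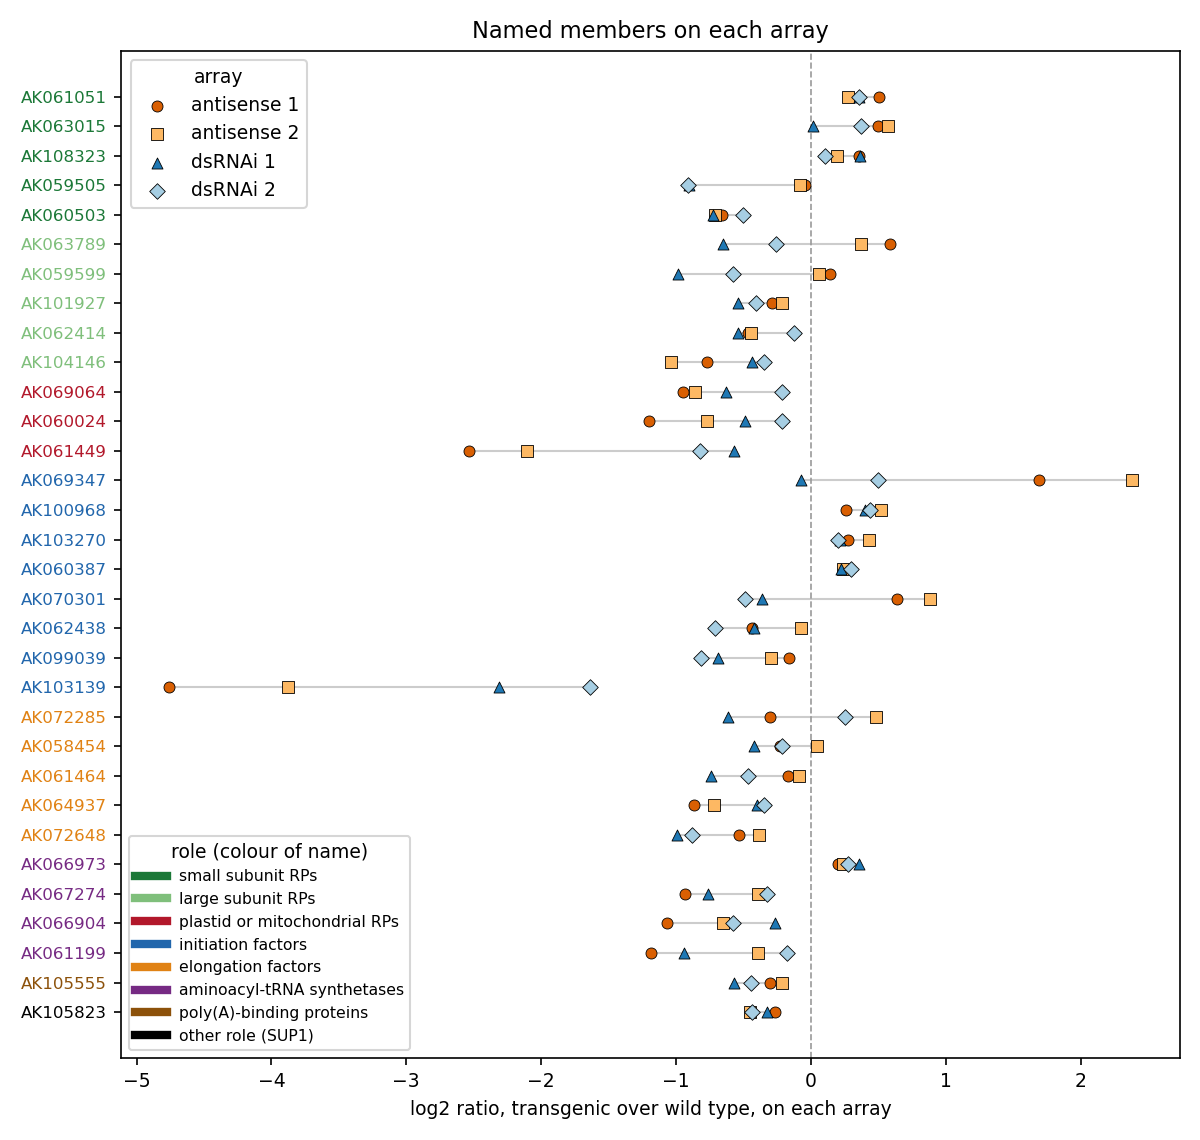
Log2 ratio of transgenic over wild type (horizontal axis) of the named members on each of the 4 arrays, in rows by cDNA with names coloured by role (RP, ribosomal protein). Circles and squares are antisense replicates 1 and 2, triangles and diamonds dsRNAi replicates 1 and 2, and grey lines join the lowest and highest array. AK103139 runs from -4.76 to -1.64 and AK069347 from -0.07 to 2.38.

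Aminoacyl-tRNA synthetases were mostly below 0: of 37 tested 1 rose and 13 fell (37.8% called, near the 41.7% of all probes), with a median of -0.17. With any 1 array left out 0 rose and 9 or 10 fell. Limma called 0 of them with construct as a random block, with median centring or with the arrays of each construct averaged, where 7, 0 and 4 had an unadjusted p under 0.05. The median was -0.09 with median centring. Of these, 13 were below 0 on all 4 arrays (35.1%, against 21.3% of all probes). A glycyl-tRNA synthetase (AK061199) gave -1.18 and -0.40 on antisense arrays and -0.94 and -0.18 on dsRNAi arrays, and fell by 0.67 ± 0.16 (adjusted p = 0.0121). The constructs overlapped, and on each of them the array with transgenic RNA in Cy5 was the lower one. A histidyl enzyme (AK066904) gave -1.07 and -0.65, then -0.26 and -0.58, and fell by 0.64 ± 0.10 (adjusted p = 0.00174). A rice methionyl enzyme (AK067274) gave -0.93 and -0.39, then -0.76 and -0.32, and fell by 0.60 ± 0.12 (adjusted p = 0.00484). All arrays of both were low. The constructs overlapped for the methionyl enzyme, and for the histidyl enzyme both antisense arrays were the lower ones.

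Enzymes for the same amino acid did not always move together. Both cDNAs described as the phenylalanine enzyme of At3g58140 fell, by 0.41 and 0.34, and both glycyl cDNAs fell. Among the valyl cDNAs AK059224 fell by 0.35 and AK066973 rose by 0.27 ± 0.08 (adjusted p = 0.0269). AK066973 stood at 0.20, 0.24, 0.36 and 0.27 over the arrays, and at 0.25 to 0.29 with any 1 array left out, without a call in those fits. The seryl enzyme AK103101, the 1 synthetase that fell in each construct on its own, stood at -0.42 with either. None of 3 glutamyl cDNAs was called in the mean by limma, and 0 of them had an unadjusted p under 0.05. For tyrosine, AK101379 and AK101530 were near wild type with antisense (0.06 and 0.16) and fell with dsRNAi, by 0.64 (adjusted p = 0.00584) and 0.56 (adjusted p = 0.00838).

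Poly(A)-binding proteins had 0 that rose and 2 that fell among 6 tested (33.3% called, against 41.7% of all probes). Limma called 0 with construct as a random block and 0 with median centring, with 1 and 0 at an unadjusted p under 0.05. AK105555 gave -0.31 and -0.22, then -0.57 and -0.44, and fell by 0.38 ± 0.08 (adjusted p = 0.00613), low on every array. AK067210 fell by 0.80 ± 0.22 (adjusted p = 0.0226), with 3 arrays low and 0.13 on dsRNAi replicate 1. One further cDNA carried the matched words with another role. It was SUP1 (AK105823), a GTP-binding protein related to EF-1 alpha, which fell by 0.37 ± 0.08 (adjusted p = 0.00809).

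Many descriptions were shared, which allowed cDNAs of the same described homologue to be set side by side. There were 56 descriptions with 2 or more tested cDNAs (131 cDNAs), and 21 of them had at least 1 call. In 6 of the 21 every cDNA was called in the same direction, in 15 some were called and others not, and in 2 of these 15, S13 and the valyl enzyme, calls went in both directions. Whether cDNAs of the same description come from the same gene is not given in the files.

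The constructs were then compared. With antisense 18 members rose and 30 fell (37.2% of all probes were called, 18.9% risen and 18.3% fallen), and with dsRNAi 1 rose and 30 fell (25.8% of all, 11.2% risen and 14.6% fallen). The members' shares were 20.4% and 13.2%, both below those of all probes. Leaving out antisense replicate 1 lowered the antisense calls to 18, and leaving out dsRNAi replicate 1 lowered the dsRNAi calls to 15, of which 3 rose and 12 fell. The median of the members was 0.010 for antisense and -0.127 for dsRNAi, and that of the difference between constructs was -0.093. With median centring the dsRNAi median was 0.053 and that of the difference 0.082, both with the sign turned. Under that centring all tested probes were not at 0 either. Their medians were 0.24 and -0.19 on the antisense arrays and 0.26 and -0.07 on the dsRNAi arrays. Small and large subunit proteins had medians of 0.080 and 0.055 for antisense and of -0.063 and -0.136 for dsRNAi. The dsRNAi medians turned to 0.071 and 0.079 with median centring, where all tested probes had the medians just given. The dsRNAi median of the small subunit turned to 0.038 without dsRNAi replicate 1. Among 105 small and large subunit proteins, 8 rose and 4 fell with antisense (11.4% called, against 37.2% of all probes). With dsRNAi 0 rose and 13 fell (12.4%, against 25.8% of all probes called and 14.6% fallen). Without antisense replicate 1 the antisense calls were 1 risen and 1 fallen in the small subunit and 0 and 2 in the large, and without dsRNAi replicate 1 the dsRNAi calls were 1 and 1 in each. With median centring limma called 0 in either subunit and construct, with 0 at an unadjusted p under 0.05. Plastid or mitochondrial proteins had medians of -0.33 for antisense and -0.24 for dsRNAi. These were -0.31 and -0.043 with median centring, and the dsRNAi median was -0.12 without dsRNAi replicate 1.

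Members called in each construct in the same direction numbered 9, of which 1 rose and 8 fell (3.83%, against 16.3% of all probes). The 8 were the eIF6-like AK103139, the chloroplast S22 AK061449, EF-1 alpha AK072648, EF-Tu AK064937, S9 AK060503, L13 AK104146, the seryl enzyme AK103101 and SUP1 AK105823. With construct as a random block, which lets the spread between constructs into the error, 6 members were called in the mean. All 6 fell: AK060503, AK061449, AK064937, AK072648, AK103139 and AK104146.

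**Figure D3:**
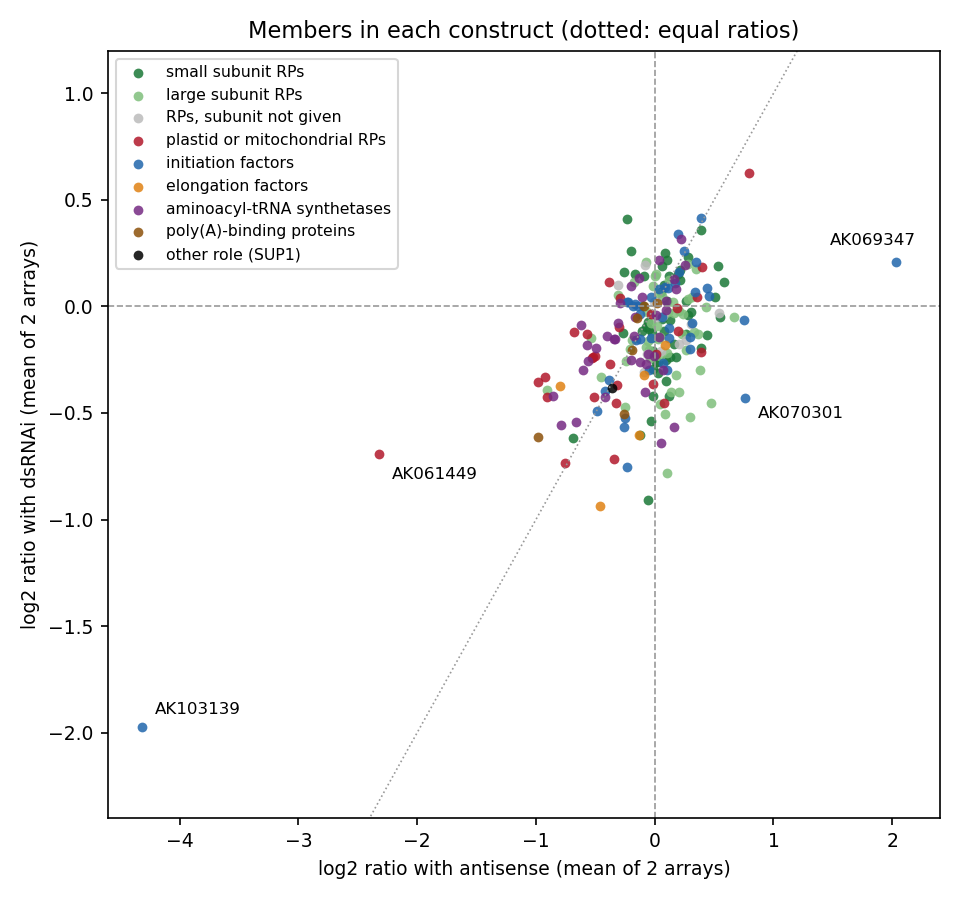
Log2 ratio of transgenic over wild type with antisense (horizontal axis) and with dsRNAi (vertical axis), each the mean of 2 arrays, for the 235 tested members coloured by role (RP, ribosomal protein). The dotted line marks equal ratios. AK103139 lies lowest in both, AK061449 is next with antisense, and AK069347 and AK070301 lie to the right.

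The difference between constructs itself was called in 12 members, 2 higher with dsRNAi and 10 lower, against 16.4% of all probes (6.33% higher and 10.1% lower). The 2 were AK103139 and AK061449, whose falls were smaller with dsRNAi, by 2.34 ± 0.32 (adjusted p = 0.00287) and 1.63 ± 0.20 (adjusted p = 0.00172). The lower ones included both eIF1A cDNAs, eIF1, and 4 large subunit cDNAs. An L22 (AK059599) stood at 0.14 and 0.06 with antisense and -0.99 and -0.58 with dsRNAi, a difference of -0.88 ± 0.19 (adjusted p = 0.0174). A cDNA described as 60S protein L144 (AK063789) stood at 0.58 and 0.37, then -0.65 and -0.26, a difference of -0.93 ± 0.19 (adjusted p = 0.0154). In both the constructs did not overlap. Without dsRNAi replicate 1 the difference of AK059599 was -0.68 (adjusted p = 0.059), and its mean, -0.34 ± 0.09 (adjusted p = 0.0215), was no longer called without antisense replicate 2 (-0.32) or dsRNAi replicate 1 (-0.24). Without dsRNAi replicate 2 the number of members called in the difference was 26. The arrays of the constructs also differ in the version of the extraction software and in the day of the scan, and construct, version and scan day cannot be told apart in these differences.

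Each channel was then read on its own, to see whether the wild type or the transgenic RNA differed between the arrays of the constructs. Between the wild type channels 57 members were called, 44 higher on the dsRNAi arrays and 13 lower (32.4% of all probes were called, 16.5% higher and 15.9% lower). Higher were 14 of 52 large subunit and 13 of 53 small subunit proteins, with 0 and 2 lower. Leaving out antisense replicate 1 gave 6 and 3 higher, antisense replicate 2 gave 8 and 8, dsRNAi replicate 1 gave 9 and 5, and dsRNAi replicate 2 gave 10 and 9. Between the transgenic channels 3 members were called, 1 higher and 2 lower (2.52% of all probes, 1.36% higher and 1.16% lower). These were a poly(A)-binding protein (AK101706, higher by 0.67), mitochondrial L11 (AK063749, -0.98) and eIF1 (AK070301, -0.75). Without antisense replicate 2 or without dsRNAi replicate 2, 0 were called between transgenic channels, with 25 and 34 at an unadjusted p under 0.05.

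All 12 members that differed between constructs differed between the wild type channels, with the opposite sign, and 1 of the 12, eIF1, between the transgenic ones. The difference between constructs is the transgenic channel difference minus the wild type one, on the same spots. The opposite sign is therefore no separate result. Over all probes called in the difference between constructs, 2626 of 2958 were called between wild type channels and 208 between transgenic ones. Wild type RNA of AK103139 had normalized log2 intensities of 11.30 and 11.19 on the antisense arrays and 8.41 and 8.39 on the dsRNAi arrays. Transgenic RNA of the same cDNA had 6.55 and 7.31 with antisense and 6.10 and 6.75 with dsRNAi. Its wild type level thus differed (dsRNAi minus antisense arrays) by -2.85 ± 0.26 (adjusted p = 3.77e-05), and the transgenic channels overlapped. For eIF1A (AK069347) the wild type level was 9.11 and 8.87 on antisense and 10.47 and 10.55 on dsRNAi arrays, and the transgenic level 10.80 and 11.25, then 10.40 and 11.05. There too the wild type channels stood apart and the transgenic ones overlapped.

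**Figure D4:**
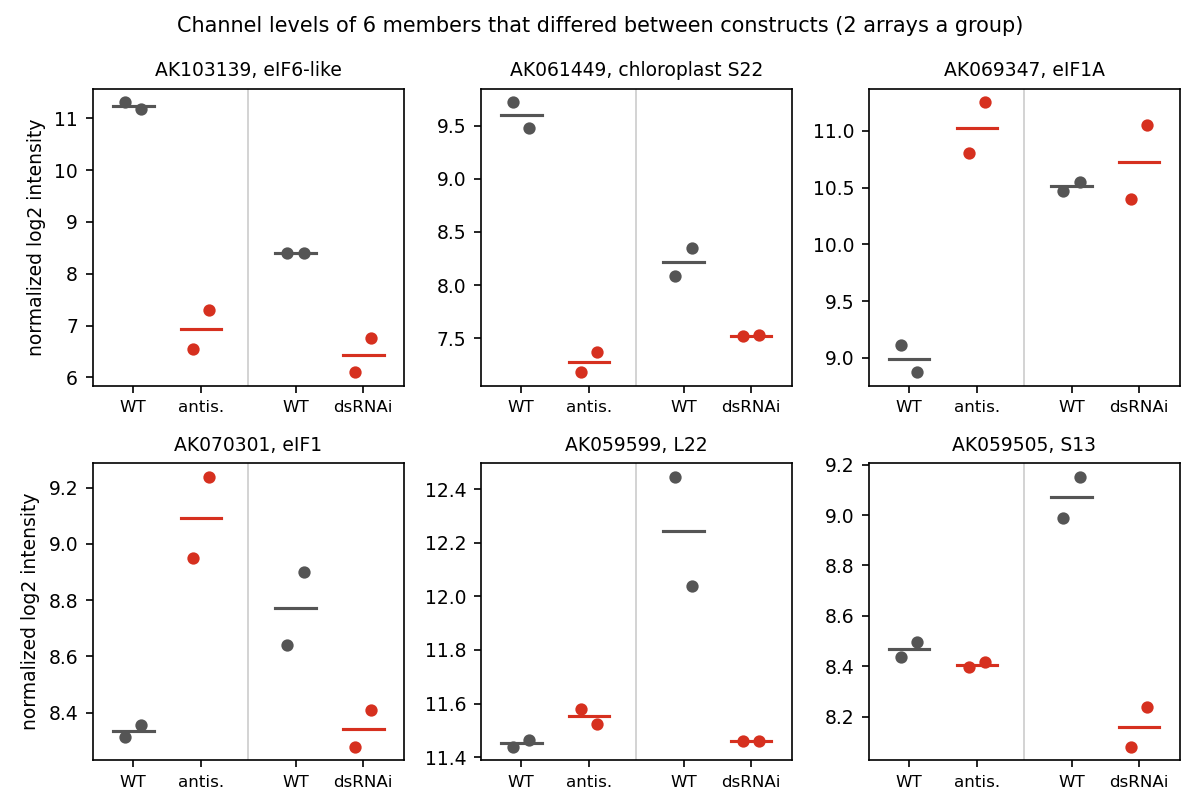
Normalized log2 intensity (vertical axes, each on its own range) of 6 members in the wild type (WT, grey) and transgenic (red) channel of the antisense arrays (left of the line) and the dsRNAi arrays (right). Points are arrays and bars their mean. The wild type level of AK103139 is near 11 on the antisense arrays and near 8 on the dsRNAi arrays, and the transgenic levels overlap.

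Other genes of the pathway were few, and their counts stand against 20.5% of all probes that rose and 21.3% that fell. Of 13 cDNAs of ribosome biogenesis 1 rose and 1 fell, with a median of 0.02. The subunit shared by RNA polymerases I, II and III (AK103408), which include the polymerase of ribosomal RNA, gave -0.67 and -0.87, then -0.98 and -1.04, and fell by 0.89 ± 0.08. Nucleolin (AK103446), a protein of rRNA maturation, rose by 0.34 ± 0.09 (adjusted p = 0.0203). Among 12 accessory cDNAs of translation 1 rose, the SRP54 protein (AK068958) that guides ribosomes to the endoplasmic reticulum, by 0.87 ± 0.08. It stood at 1.33 and 1.51 with antisense and at 0.24 and 0.42 with dsRNAi, where it was not called (adjusted p = 0.0811), and the difference was -1.09 ± 0.17 (adjusted p = 0.00437). The 1 that fell was the chloroplast ribosome recycling factor (AK065242), by 0.30 ± 0.08 (adjusted p = 0.0222). It stood at -0.74 and -0.79 with antisense and 0.28 and 0.07 with dsRNAi.

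Markers of the tissue and of other cell types were read beside these results, and their counts stand against 20.5% of all probes that rose and 21.3% that fell. Markers of dividing cells (13 of 15 tested, the other 2 not above background) had 2 that rose and 4 that fell, with summed log2 levels of 17.34 to 18.07 in wild type and 17.22 to 17.69 in transgenic channels. Markers of green leaf tissue (32 of 38 tested, 5 not above background) had 5 that rose and 7 that fell and a median of 0.02, with summed levels of 15.12 to 16.24 in wild type and 15.35 to 16.09 in transgenic channels. These ranges overlap. Secondary wall markers (48 of 58 tested, 6 not above background) were lower in transgenic channels, at 14.86 to 15.04 against 15.45 to 15.70, with 9 that rose and 19 that fell. KNOX genes of the meristem (11 of 11 tested), MADS-box genes (25 of 27) and anther and pollen markers (6 of 12, the other 6 not above background) had 5, 12 and 3 that rose and 1, 3 and 0 that fell. The summed level of KNOX genes was 12.73 to 13.54 in wild type and 14.04 to 14.29 in transgenic channels, and that of anther and pollen markers 12.61 to 13.38 and 13.39 to 13.81. Single KNOX genes ran from -0.45 to 2.90 with a median of 0.16, 7 above 0 and 4 below. Summed MADS-box levels were 15.33 to 15.70 in wild type and 15.69 to 15.87 in transgenic channels, which overlap. The part of these tissues in the results on the translation genes was not tested.

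Before loess the ratios of the members moved more with the dye than those of all probes. With each array centred on its median, the medians of the members were 0.65 and -0.69 on the antisense arrays and 0.49 and -0.30 on the dsRNAi arrays, high where the transgenic RNA was in Cy5 and low where it was in Cy3. All tested probes had 0.24, -0.19, 0.26 and -0.07 in the same way. With loess the members had 0.008, 0.002, -0.19 and -0.06. Under median centring the mean of both constructs had a median of 0.004 over the members, -0.20 over plastid or mitochondrial proteins and -0.09 over synthetases.

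**Figure D5:**
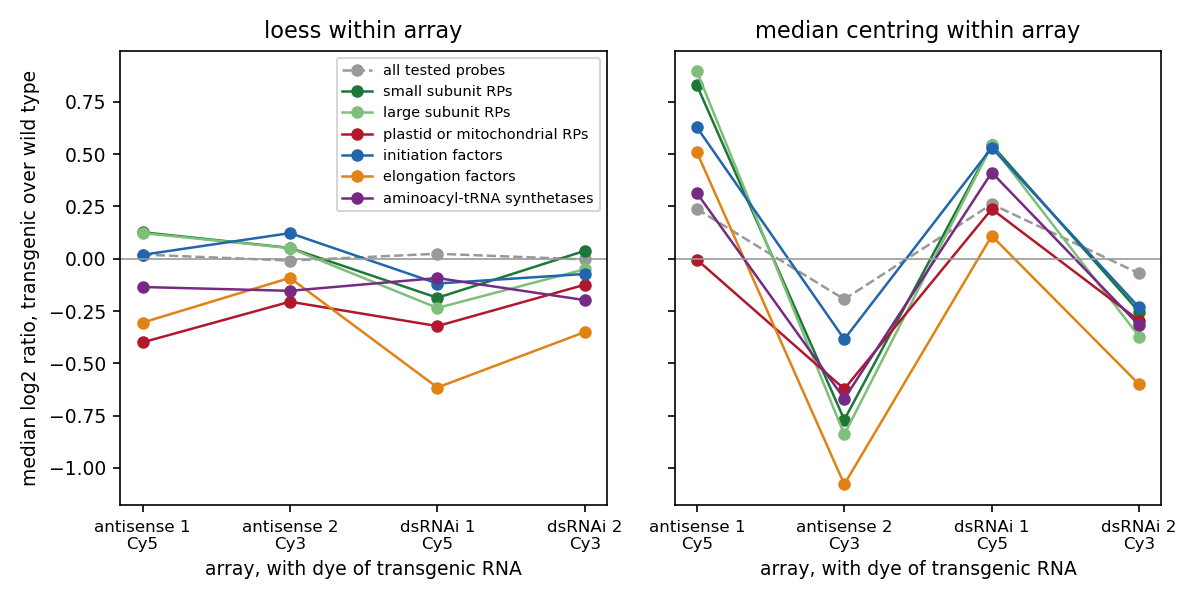
Median log2 ratio of transgenic over wild type (vertical axis) of the members by role and of all tested probes on each array (horizontal axis, with the dye of the transgenic RNA), after loess (left) and after median centring (right). RP, ribosomal protein. With median centring all medians but that of plastid or mitochondrial proteins on antisense replicate 1 are above 0 with Cy5, and all are below 0 with Cy3.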

How the data were processed

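RNA of transgenic and wild type panicles was hybridised on 4 2-colour Agilent rice arrays. The deposited spot and background intensity values, and the log10 ratio of red over green, were made by the authors with Agilent Feature Extraction 8.1.1.1 (antisense) and 9.1.3.1 (dsRNAi), per the file headers. The deposited series table holds log2 ratios of Cy5 over Cy3 (scale and direction found by setting it against the scanner ratios, r = 0.839 to 0.975), with centring unknown and array medians, turned to transgenic over wild type, from -0.0366 to 0.0842.

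Dyes were taken from the label fields. The labelling protocol of the swapped arrays names the other dye, and after turning by the label fields the arrays of each construct correlated at 0.933 (antisense) and 0.832 (dsRNAi) over probes. The design text speaks of independent pools, and the sample labels do not settle it.

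Intensities were corrected with normexp (offset 50) and loess within each array in limma 3.58.1 (R 4.3.3), with control and outlier spots left out. A probe had to exceed background clearly in either channel of 2 or more arrays (18096 did), and the 17997 with a value on all 4 arrays were fitted with 1 coefficient per construct. Channels were fitted separately after loess and Aquantile (intraspot correlation 0.237). The scripts were tested on simulated data.

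Members and lists were chosen with earlier results of these data known. Named were, in each role, up to 3 called members at each end of the mean with the same sign on all 4 arrays, up to 5 at each end of the difference between constructs, every tested member of a role of 5 or fewer, and for each pathway list the called members of largest size. Other cDNAs were named after their values were seen, for a shared description, a compartment or a count. Of the cDNA accessions, 0 were found in the reference gene table, so the names are those of the array. Other offsets, filters, normalizations, deposited ratios, a dye term, an intensity trend, a random block and leaving out each array were tried as alternatives.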

Additional observations from a re-analysis of the deposited data

Results flagged for a closer look

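Among the named members, 7 differed between the constructs by the test of the difference itself (dsRNAi minus antisense, log2, limma over all probes). Lower with dsRNAi were the eIF1A AK069347 (-1.82), the eIF1 AK070301 (-1.19), the L144 cDNA AK063789 (-0.93), the L22 cDNA AK059599 (-0.88) and the S13 cDNA AK059505 (-0.85). The difference was above 0 for the eIF6-like AK103139 (2.34) and the chloroplast S22 AK061449 (1.63), both of which fell more with antisense. In all 7 the wild type channels differed between the arrays of the constructs with the opposite sign, which comes from the same spots and is no separate result. Construct, extraction software version and scan day cannot be told apart in these values.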

How the results depend on the processing

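The number of members called in the mean of both constructs was 57, and became 37 with the deposited log ratio, 3 with median centring, 6 with construct as a random block and 0 with the arrays of each construct averaged, where limma had 20 at an unadjusted p under 0.05. Leaving out 1 array gave 43 to 57. With antisense 48 became 25 (deposited log ratio), 29 (series table) and 3 (median centring), and 18 to 55 without 1 array. With dsRNAi 31 became 15, 14 and 1 under the same settings, and 15 to 40 without 1 array. The 12 called in the difference became 6, 3 and 0 (3 at an unadjusted p under 0.05 in limma), and 10 to 26 without 1 array. The 57 between wild type channels became 33 to 46 and the 3 between transgenic channels 0 to 2 without 1 array. The other settings tried kept each of these counts within 1.5 times.

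Of 568 repeats of 39 values of 32 named members, 441 kept their direction and side of the threshold, 121 kept the direction and lost the call, and 6 changed sign. These were AK108323, whose wild type channel was not above background, with median centring (-0.023), AK072285 with the series table (0.10), without antisense replicate 1 (0.15) and without dsRNAi replicate 1 (0.17, over a range of -0.26 to 0.17 without 1 array), and the mean of AK063789 without antisense replicate 1 (-0.04) and without dsRNAi replicate 2 (-0.086, over a range of -0.086 to 0.11 without 1 array). The cause was not tested, except that averaging and leaving out arrays fit fewer values. Replicate numbers were given in accession order and coincide with the dye of the transgenic RNA. A fit with the dye as a term is therefore the same as one with a replicate block, and it called 61 in the mean, 49 with antisense, 39 with dsRNAi and 16 in the difference. The numbers alone do not pair the RNA. The fit has 2 residual degrees of freedom, and cDNAs near background or saturation have ratios of limited range.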
